A study of Mus musculus with 12 samples.

Results

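The interferon regulatory factors (IRFs) are transcription factors that share a DNA-binding domain and bind the interferon-stimulated response element. Some of them switch on interferon genes or carry the interferon signal to its target genes, and others, chiefly Irf4 and Irf8, direct how blood cells develop. In mice Irf8 is known as a brake on osteoclast formation that the repressor Blimp1 lowers, while Irf4 and Irf8 are needed by different dendritic cell subsets. The 8 genes described here, Irf1, Irf2, Irf3, Irf4, Irf5, Irf7, Irf8 and Irf9, were taken by symbol, and all 8 were found among the 46072 genes of the authors' deposited table.

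The 12 libraries come from cultures of C57BL/6J bone marrow, 4 for each of 3 myeloid cell types, and the mice were 6 to 8 weeks old. Osteoclasts, which fuse into multinucleated cells and resorb bone, received RANKL (50 ng/ml) beside M-CSF (30 ng/ml), and cells with a single nucleus were then stripped off with Accutase. Immature dendritic cells were grown with GM-CSF (20 ng/ml), and macrophages with M-CSF alone (30 ng/ml). The osteoclast and macrophage precursors had first spent 5 days in a higher dose of M-CSF (100 ng/ml), a step the labels do not give for dendritic cells. No gene was altered in any group, the labels describe no sort, and per the labels the osteoclasts, dendritic cells and macrophages of an experiment came from the same mouse, in 4 separate marrow extractions.

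The deposited table gives, per gene, the authors' mean normalised count in each cell type and, for each pair, a log2 fold change with its p-values before and after adjustment. A gene is said to be called where the authors' adjusted p was under 0.05, and ± beside a fold change is a standard error worked back from the authors' p-value. Whole reads of the 4 libraries could be recovered from the printed means for 12 of the 24 pairs of a member and a cell type, and these are given as normalised reads of libraries a to d. The letters carry no replicate number: library a of one cell type is not tied to library a of another. The authors' means summed to 24242540 in osteoclasts, 27731759 in dendritic cells and 25022062 in macrophages, and the size factors of the 12 libraries ran from 0.975 to 1.04. The dendritic cultures also held markers of other cells: the summed means of 8 neutrophil markers were 14582 in dendritic cells, 77.6 in osteoclasts and 92.0 in macrophages, and those of 8 mast cell and basophil markers were 805 in dendritic cells, 12.7 in osteoclasts and 8.03 in macrophages (authors' deposited table). Macrophage libraries b and d carried 1097 and 592 normalised reads of the dendritic cell gene H2-Ab1, against 121 in library a and 142 in library c. In such bulk samples, fewer cells of a type and less RNA per cell cannot be told apart, which holds for every level below.

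The promoters of the members on which the results turn are shown first, because 3 of the 8 members hold a match to the GAS element, the gamma-activated site of interferon signalling, and 1 of them also a match to the interferon-stimulated response element (ISRE) itself. The windows run from 250 bases before to 50 bases after a RefSeq start site (GRCm38.p6, 300 bases, plus strand of the chromosome). Irf1 and Irf8 each have another start-site window, which is not shown. Capitals mark matches to GAS (TTCNNNGAA) or ISRE (GAAA, any 2 bases, GAAA), searched on both strands.
Irf1, chr11:53769764-53770063: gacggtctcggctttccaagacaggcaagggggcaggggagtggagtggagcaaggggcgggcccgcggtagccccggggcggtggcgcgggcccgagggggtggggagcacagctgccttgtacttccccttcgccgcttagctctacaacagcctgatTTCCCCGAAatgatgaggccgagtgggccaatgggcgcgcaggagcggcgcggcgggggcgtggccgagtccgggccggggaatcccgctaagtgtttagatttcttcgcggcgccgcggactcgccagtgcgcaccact
Irf2, chr8:46739495-46739794: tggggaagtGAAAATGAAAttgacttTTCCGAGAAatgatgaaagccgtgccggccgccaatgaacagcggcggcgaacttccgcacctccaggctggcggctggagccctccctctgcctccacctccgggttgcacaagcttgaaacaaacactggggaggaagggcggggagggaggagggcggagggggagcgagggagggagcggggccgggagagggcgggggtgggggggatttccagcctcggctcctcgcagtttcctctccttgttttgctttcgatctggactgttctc
Irf8, chr8:120736108-120736407: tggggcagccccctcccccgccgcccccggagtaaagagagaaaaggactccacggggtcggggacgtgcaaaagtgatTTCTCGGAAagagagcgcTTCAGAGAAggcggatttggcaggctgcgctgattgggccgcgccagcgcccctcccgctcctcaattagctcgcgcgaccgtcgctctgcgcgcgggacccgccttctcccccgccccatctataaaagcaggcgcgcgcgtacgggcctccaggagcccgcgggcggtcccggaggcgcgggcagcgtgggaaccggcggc
Irf4, chr13:30748983-30749282: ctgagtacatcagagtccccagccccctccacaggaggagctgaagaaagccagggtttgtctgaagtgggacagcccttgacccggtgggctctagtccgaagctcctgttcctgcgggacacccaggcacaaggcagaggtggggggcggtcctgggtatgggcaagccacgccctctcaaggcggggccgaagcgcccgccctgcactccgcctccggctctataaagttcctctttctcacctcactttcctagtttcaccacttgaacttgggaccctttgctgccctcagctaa

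With the start site counted as 0, the GAS match of Irf1 (TTCCCCGAA) lies at -90 to -82, and Irf8 holds a pair of GAS matches, TTCTCGGAA at -171 to -163 and TTCAGAGAA at -153 to -145. Irf2 holds the ISRE match GAAAATGAAA at -241 to -232 and a GAS match, TTCCGAGAA, at -224 to -216. Its ISRE match overlaps a match to EICE (GGAA, any 2 bases, GAAA), the composite site that Spi1 binds together with Irf4 or Irf8, whose letters there are GGAAGTGAAA at -247 to -238. Of the 11 windows of the 8 members, 3 held a GAS match, 1 an ISRE match and 1 an EICE match. The other windows of Irf1 (chr11:53770223-53770522) and Irf8 (chr8:120738389-120738688) held no match. None of the 11 windows matched the NF-kappa-B letters searched (GGGA, any 2 bases, TTCC) or those of AP-1 (TGANTCA). Of all 32851 promoter windows of the same length, 8.30% held a GAS match, 3.44% an ISRE match, 2.72% an EICE match, 1.47% an NF-kappa-B match and 7.81% an AP-1 match. The Irf4 window, the gene with the widest range of levels, held none of the letters searched.

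Members lay at very different levels (the plot of means by cell type). Scaled to the length of their exons, Irf5 was the highest member in each cell type, with means per kb of 1589 in osteoclasts, 4240 in dendritic cells and 1901 in macrophages from the authors' deposited table. That was 53.9% of the summed length-scaled level of the 8 members in osteoclasts, 50.4% in dendritic cells and 46.2% in macrophages. Irf4 made up 27.7% of the same sum in dendritic cells, against 0.242% in osteoclasts and 0.611% in macrophages. The sum itself was 2946 per kb in osteoclasts, 8405 in dendritic cells and 4112 in macrophages. Irf4 and Irf5 alone made up 78.1% of it in dendritic cells, and the other 6 members summed to 1350 per kb in osteoclasts, 1840 in dendritic cells and 2185 in macrophages. Irf8 was second to Irf5 in macrophages, with 447 per kb, and ranked 7 of 8 in both osteoclasts (128 per kb) and dendritic cells (250 per kb). Per kb, Irf4 stood 9.31-fold above Irf8 in dendritic cells, whereas Irf8 stood 17.9-fold above Irf4 in osteoclasts and 17.8-fold above it in macrophages. The length used is the union of all annotated exons of a gene and can exceed that of its transcripts. For Irf7 it was 3776 bases, the whole gene from start to end, against 2905 bases for Irf5. Shares, ranks and ratios between members depend on it. Without length scaling Irf5 also had the highest mean in each cell type.

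**Figure D1:**
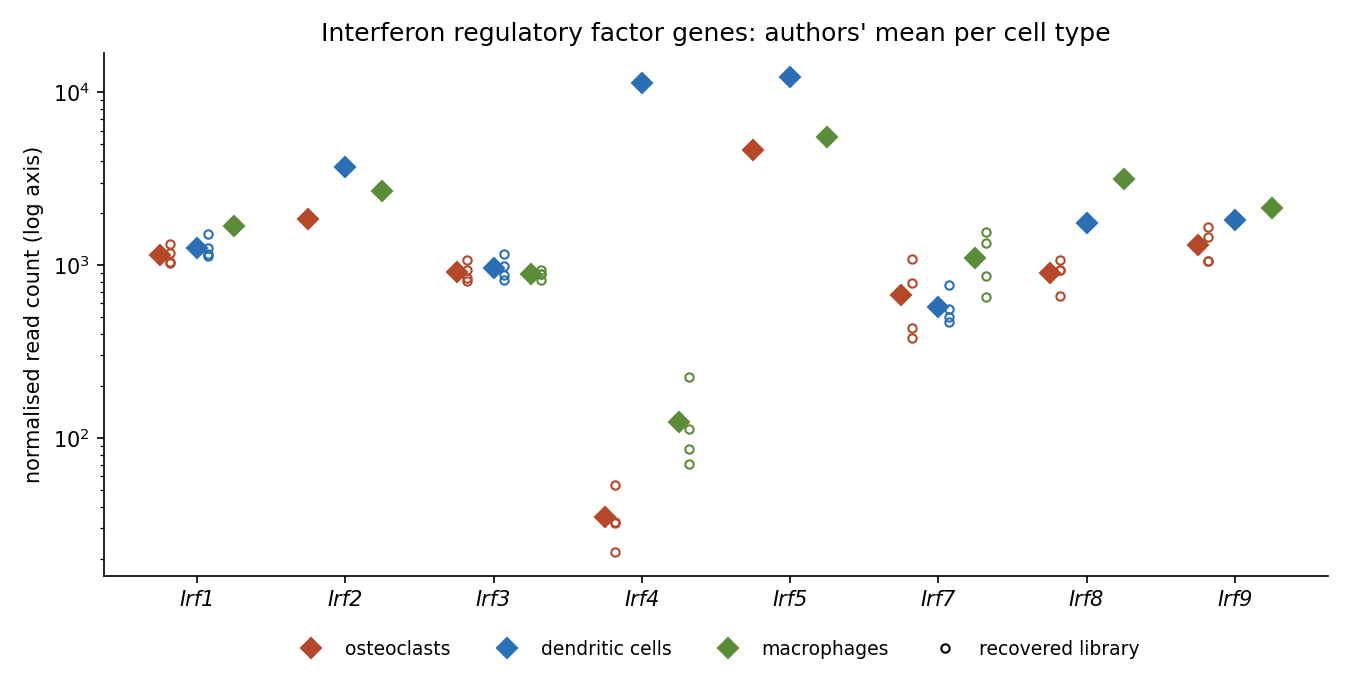
Authors' mean normalised count of each member (diamonds, log axis) in osteoclasts, dendritic cells and macrophages, with recovered libraries as open circles where whole reads could be recovered (n = 4). Irf4 spans from 35.0 in osteoclasts to 11403 in dendritic cells, while the 3 means of Irf3 lie between 887 and 962.

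**Figure D2:**
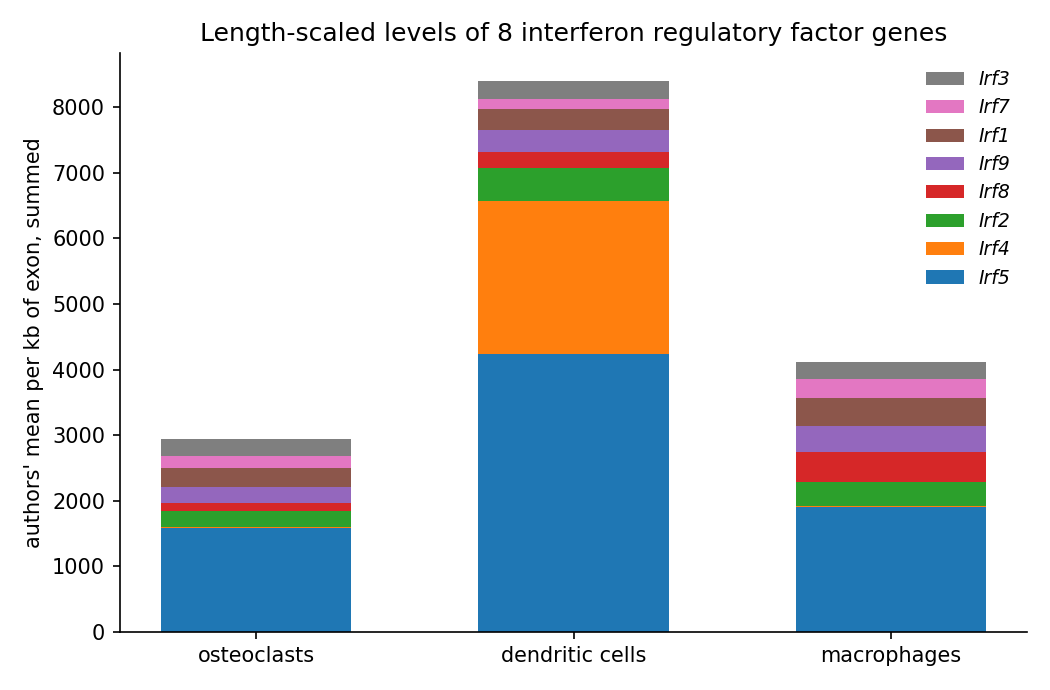
Authors' means per kb of exon stacked over the 8 members, by cell type. The dendritic cell bar reaches 8405, the osteoclast bar 2946 and the macrophage bar 4112, and Irf5 is the largest block of each.

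Osteoclasts against macrophages asks how cells given RANKL differ from those kept in M-CSF alone. Of the 8 members, 5 were lower in osteoclasts (Irf1, Irf2, Irf4, Irf8 and Irf9), 0 were higher and 3 were not called (Irf3, Irf5 and Irf7), in the authors' deposited table. Over all 17822 genes tested there, 29.3% were called in either direction, 14.5% being higher and 14.7% lower. The median log2 fold change of the members was -0.63, beside -0.03 over all genes tested. Irf8 and Irf4 were the members lower by at least 2-fold, a size that 12.1% of all genes tested reached in either direction.

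Against dendritic cells, 5 members were again lower in osteoclasts (Irf2, Irf4, Irf5, Irf8 and Irf9), 0 were higher and 3 were not called (Irf1, Irf3 and Irf7) in the authors' deposited table. Of all 21217 genes tested, 36.9% were called, 16.8% being higher and 20.1% lower. Irf2, Irf4 and Irf5 were lower by at least 2-fold, a size that 20.5% of all genes reached in either direction. The median of the members was -0.72, beside -0.05 over all genes. In dendritic cells against macrophages, 3 members were higher (Irf2, Irf4 and Irf5), 2 were lower (Irf7 and Irf8) and 3 were not called (Irf1, Irf3 and Irf9), where 36.7% of 20730 genes were called, 20.3% being higher and 16.4% lower. Irf4 and Irf5 were higher by at least 2-fold, a size that 20.2% of all genes reached in either direction. Their median was -0.06, beside 0.05 over all genes. The 3 comparisons share their libraries, so they are not independent of each other. With equal totals for the cell types, all fold changes shifted by 0.19 for osteoclasts over dendritic cells and by -0.15 for dendritic cells over macrophages. Over all genes that gave 5322 higher and 3340 lower in osteoclasts than in dendritic cells (3554 and 4275 as deposited), and 3457 higher and 4624 lower in dendritic cells than in macrophages (4212 and 3396 as deposited).

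**Figure D3:**
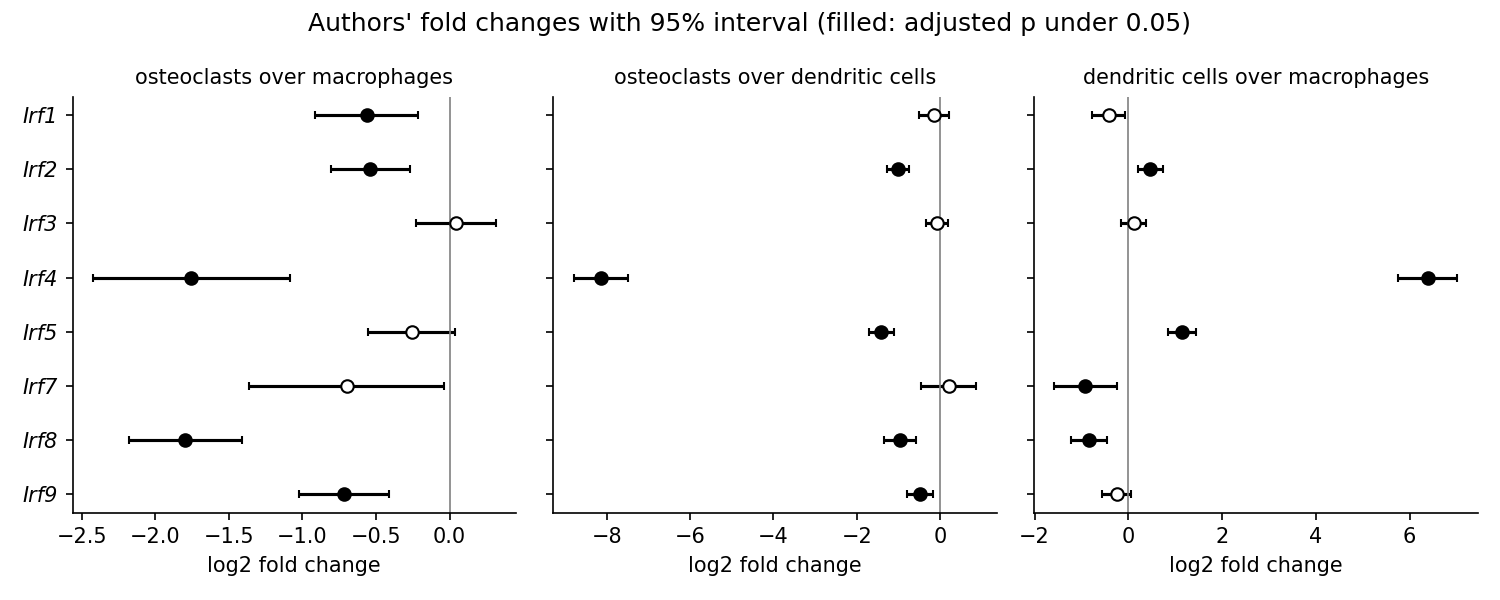
The authors' log2 fold change of each member in the 3 comparisons with its implied 95% interval; filled circles have an adjusted p under 0.05, and the horizontal scales differ between panels. No filled circle lies right of 0 in either osteoclast panel, and Irf4 lies farthest from 0 in both panels with dendritic cells, at -8.14 and 6.39.

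Irf8 (ENSMUSG00000041515, chromosome 8, 120736358 to 120756694, plus strand, GRCm38) is the factor of monocyte and dendritic cell fate that restrains osteoclast formation in mice. Its means were 900 in osteoclasts, 1763 in dendritic cells and 3156 in macrophages (authors' deposited table). The 4 osteoclast libraries held 938, 665, 932 and 1065 normalised reads (900 ± 168, SD, n = 4). Library b was the lowest of the osteoclast libraries, and all 4 stood below the means of the other cell types. Irf8 was 3.47-fold lower in osteoclasts than in macrophages (log2 fold change -1.79 ± 0.20, adjusted p = 8.98e-18 by the authors' DESeq test, deposited table). It was also lower in osteoclasts than in dendritic cells (-0.96 ± 0.20, adjusted p = 7.39e-06) and in dendritic cells than in macrophages (-0.83 ± 0.20, adjusted p = 0.00012, deposited table). Macrophage markers moved with Irf8 against macrophages, but not between osteoclasts and dendritic cells. Of 8, 7 were lower and 0 higher in osteoclasts than in macrophages (median -1.98), with summed means of 84964 in osteoclasts, 71451 in dendritic cells and 212757 in macrophages (authors' deposited table). Of the same 8, 3 were lower and 1 higher in osteoclasts than in dendritic cells (median 0.11), and 5 were lower and 0 higher in dendritic cells than in macrophages (median -0.90, authors' deposited table). Their part in the result for Irf8 was not tested. All neighbours in the order macrophages, dendritic cells, osteoclasts therefore differed.

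Irf4 (ENSMUSG00000021356, chromosome 13, 30749226 to 30766976, plus strand) is the member required by the dendritic cells that GM-CSF raises from mouse marrow. Its means were 35.0 in osteoclasts, 11403 in dendritic cells and 123 in macrophages (authors' deposited table). Osteoclast libraries held 53.4, 32.0, 32.8 and 21.9 normalised reads (35.0 ± 13.2, SD, n = 4), against 70.8, 85.7, 112 and 224 in macrophage libraries (123 ± 69.5, SD, n = 4). The highest osteoclast library stood below the lowest macrophage library, so these groups did not overlap. Irf4 was lower in osteoclasts than in macrophages by -1.76 ± 0.34 on the log2 scale (adjusted p = 3.98e-06 by the authors' DESeq test, deposited table). The exact two-sided permutation test over the recovered libraries gave p = 0.0286, the smallest that 4 against 4 allows, and 0.229 after Benjamini-Hochberg adjustment over the 8 such tests run here. It treated the libraries as unpaired, because mice could not be matched across cell types. Macrophage library d, the highest for Irf4, also carried the dendritic cell markers named above, but library b, with the most H2-Ab1, had only 85.7 normalised reads of Irf4. Osteoclast library a, the highest osteoclast library for Irf4, likewise held the most H2-Ab1 of the osteoclast libraries (653 normalised reads, against 227, 262 and 335 in libraries b, c and d). The part of these markers in the result was not tested. The ratio of the means kept its sign with each library left out, at -2.09 to -1.35 on the log2 scale.

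In dendritic cells Irf4 was 83.7-fold higher than in macrophages (log2 fold change 6.39 ± 0.32, adjusted p = 1.03e-84) and 283-fold higher than in osteoclasts (osteoclasts over dendritic cells -8.14 ± 0.34, adjusted p = 1.17e-126, both from the authors' deposited table). No dendritic cell library of Irf4 could be recovered. The neutrophil and mast cell markers given above were also highest in the dendritic cultures, and their part in the levels of Irf4 and Irf5 there was not tested. Of 6 genes associated with Irf4 in dendritic cells, all 6 were higher in dendritic cells than in macrophages and all 6 lower in osteoclasts than in dendritic cells (authors' deposited table). Among them, Ccl17, a chemokine for T cells, averaged 69229.6 in dendritic cells against 64.9 in macrophages, and Mgl2, a lectin receptor, 36265 in dendritic cells against 60.7 in macrophages (authors' deposited table). In osteoclasts over macrophages 1 of the 6 was called, the chemokine Ccl22, higher by 1.59 ± 0.40 (adjusted p = 0.000487, authors' deposited table). Several of these genes mark dendritic cells, so their direction is not independent of the culture's label. Of all genes tested, 20.3% were higher in dendritic cells than in macrophages and 20.1% lower in osteoclasts than in dendritic cells. B and plasma cells can also express Irf4, and the summed means of 8 of their markers were 68.3 in osteoclasts, 336 in dendritic cells and 941 in macrophages, most of it Ighm, the IgM heavy chain, with 57.6 in osteoclasts, 316 in dendritic cells and 891 in macrophages (authors' deposited table). By library these sums were 117, 66.1, 40.7 and 49.7 in osteoclasts and 630, 315, 1195 and 1626 in macrophages, highest in osteoclast library a and macrophage library d, the libraries where Irf4 was also highest. Of these 8 markers, 3 were at 0 in osteoclasts, 3 in dendritic cells and 2 in macrophages, Mzb1 being at 0 in all of them. The part of these markers in the levels of Irf4 was not tested.

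Irf5 (ENSMUSG00000029771, chromosome 6, 29526625 to 29541871, plus strand) acts downstream of Toll-like receptors in the induction of inflammatory cytokines. Its means were 4615 in osteoclasts, 12316 in dendritic cells and 5523 in macrophages (authors' deposited table). It was lower in osteoclasts than in dendritic cells (-1.41 ± 0.15, adjusted p = 1.41e-19) and higher in dendritic cells than in macrophages (1.15 ± 0.15, adjusted p = 2.34e-13, deposited table). Osteoclasts and macrophages were not told apart, with a log2 fold change of -0.26 and a 95% interval of -0.55 to 0.04 (adjusted p = 0.201, authors' deposited table). Exons of Irf5 overlap those of Tnpo3 on the opposite strand over 411 bases, or 14.1% of its exon length, and none of the sources used here says whether the counting used strand. Smaller overlaps touch Irf1 (Gm17334, 3.40% of its exon length), Irf3 (Bcl2l12, 2.56%) and Irf7 (Phrf1, 1.19%) on the opposite strand and Irf9 (Rnf31, 2.28%) on the same strand, so a small part of their reads is uncertain too. Tnpo3 itself had means of 2928 in osteoclasts, 2441 in dendritic cells and 2624 in macrophages (authors' deposited table). The part of reads from the shared bases in the level of Irf5 was not tested.

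Irf1 and Irf2 bind the same element, Irf1 as an activator induced by gamma interferon and Irf2 mostly as its antagonist. Irf1 (ENSMUSG00000018899, chromosome 11, 53770014 to 53778374, plus strand) had means of 1143 in osteoclasts, 1263 in dendritic cells and 1694 in macrophages (authors' deposited table). The osteoclast libraries held 1330, 1169, 1042 and 1030 normalised reads and the dendritic cell libraries 1509, 1154, 1254 and 1137. These ranges overlapped. Irf1 was lower in osteoclasts than in macrophages (-0.56 ± 0.18, adjusted p = 0.00824, authors' deposited table). It was not called between osteoclasts and dendritic cells (-0.14 ± 0.18, adjusted p = 0.592; with totals made equal the fold change was 0.05 and the adjusted p 0.866) or between dendritic cells and macrophages (-0.42 ± 0.18, adjusted p = 0.0513, authors' deposited table). The last of these lay at the threshold: it was called with totals made equal, with upper-quartile scaling and with low genes left out.

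Irf2 (ENSMUSG00000031627, chromosome 8, 46739732 to 46847458, plus strand) had a different order, with means of 1843 in osteoclasts, 3724 in dendritic cells and 2680 in macrophages (authors' deposited table). It was lower in osteoclasts than in macrophages (-0.54 ± 0.14, adjusted p = 0.000667) and than in dendritic cells (-1.01 ± 0.14, adjusted p = 2.13e-12), and higher in dendritic cells than in macrophages (0.47 ± 0.14, adjusted p = 0.00218, authors' deposited table). Among 14 target genes of Irf1 and gamma interferon, 9 were lower and 1 higher in osteoclasts than in macrophages, with a median of -0.66 beside -0.03 over all genes (authors' deposited table). Against dendritic cells 9 were lower and 1 higher in osteoclasts, and in dendritic cells over macrophages 8 were higher and 3 lower (authors' deposited table). In the same order of comparisons, 29.3%, 36.9% and 36.7% of all genes tested were called in either direction. The 1 target gene higher in osteoclasts was in both cases Cxcl10, a chemokine, by 1.19 ± 0.33 over macrophages (adjusted p = 0.00175) and by 1.75 ± 0.33 over dendritic cells (adjusted p = 7.49e-07, authors' deposited table). Osteoclast library b carried 559 normalised reads of Cxcl10, against 252, 245 and 230 in libraries a, c and d. Gbp2, an interferon-induced GTPase, had means of 242 in osteoclasts, 8085 in dendritic cells and 553 in macrophages in the same deposited table.

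Irf3 and Irf7 are the factors that switch on type I interferon genes once viral nucleic acid has been sensed, Irf3 being present beforehand and Irf7 being itself induced by interferon. Irf3 (ENSMUSG00000003184, chromosome 7, 44997648 to 45002848, plus strand) held 808, 932, 848 and 1070 normalised reads in osteoclast libraries, 983, 877, 822 and 1168 in dendritic cell libraries, and 826, 888, 944 and 891 in macrophage libraries. The 3 ranges overlapped, and Irf3 was called in none of the 3 comparisons. Its log2 fold changes were 0.04 in osteoclasts over macrophages (95% interval -0.23 to 0.31), -0.07 in osteoclasts over dendritic cells (-0.34 to 0.20) and 0.12 in dendritic cells over macrophages (-0.15 to 0.39) in the authors' deposited table, and with totals made equal that of osteoclasts over dendritic cells turned to 0.12 and that of dendritic cells over macrophages to -0.03. The exact permutation tests gave p of 0.714, 0.629 and 0.486 in the same order, each 0.714 after adjustment.

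Irf7 (ENSMUSG00000025498, chromosome 7, 141262706 to 141266481, minus strand) varied most between libraries of the same cell type among the recovered pairs with means over 500. Osteoclast libraries held 784, 1082, 381 and 435 normalised reads (670 ± 328, SD, n = 4), dendritic cell libraries 560, 503, 469 and 770 (576 ± 135, SD, n = 4), and macrophage libraries 1561, 656, 1335 and 861 (1103 ± 417, SD, n = 4). The macrophage values, and the tests that use them, assume that each library lay within 2-fold of the mean. The highest osteoclast library stood 2.84-fold above the lowest, and the ranges of all 3 cell types overlapped. Irf7 was lower in dendritic cells than in macrophages (authors' deposited table) (-0.91 ± 0.34, adjusted p = 0.0211), where the exact permutation test over libraries gave p = 0.0571 (0.229 adjusted). It was not called in osteoclasts over macrophages (-0.70 ± 0.34, adjusted p = 0.108) or over dendritic cells (0.21 ± 0.34, adjusted p = 0.683, authors' deposited table). The ratio of osteoclasts to dendritic cells ran from -0.11 to 0.41 on the log2 scale as each library was left out in turn.

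Irf9 (ENSMUSG00000002325, chromosome 14, 55603571 to 55610030, plus strand) joins Stat2 in ISGF3, the complex that carries the type I interferon signal to the ISRE. Its means were 1306 in osteoclasts, 1814 in dendritic cells and 2154 in macrophages (authors' deposited table), and its osteoclast libraries held 1657, 1451, 1056 and 1060 normalised reads. All 4 stood below the macrophage mean. Irf9 was lower in osteoclasts than in macrophages (-0.72 ± 0.16, adjusted p = 5.14e-05) and than in dendritic cells (-0.47 ± 0.16, adjusted p = 0.00931, authors' deposited table), but with totals made equal the fold change over dendritic cells was -0.28 and no longer called (adjusted p = 0.154). Irf9 was not called in dendritic cells over macrophages (-0.25 ± 0.16, adjusted p = 0.23, authors' deposited table), but with totals made equal it was called lower (-0.39, adjusted p = 0.0323). The partner Stat2 was lower in osteoclasts than in macrophages (-1.40 ± 0.20, adjusted p = 2.79e-11) and than in dendritic cells (-1.57 ± 0.20, adjusted p = 1.6e-14, authors' deposited table).

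Among 16 genes that ISGF3 switches on, 13 were lower in osteoclasts than in macrophages and 0 higher, with a median of -1.23 beside -0.03 over all genes (authors' deposited table). Mx1, an antiviral GTPase, had means of 97.6 in osteoclasts and 308 in macrophages, and Bst2, which tethers budding viruses, 1465 in osteoclasts and 3111 in macrophages (authors' deposited table). In osteoclasts over dendritic cells 2 were higher and 4 lower, and in dendritic cells over macrophages 1 was higher and 7 lower, the higher one being Mx1 (2.78 ± 0.30, adjusted p = 1.94e-19, authors' deposited table). Of all genes tested, 14.7% were lower in osteoclasts than in macrophages and 16.4% lower in dendritic cells than in macrophages. In osteoclasts over dendritic cells 36.9% of all genes were called in either direction, near the share of these targets. Oas2 and Oas3, sensors of double-stranded RNA, were the pair higher in osteoclasts than in dendritic cells, by 1.69 ± 0.35 and 0.66 ± 0.16 (authors' deposited table).

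These target genes moved together from library to library (the plot of Irf7, Irf3 and ISGF3 target genes). Of the 12 whose osteoclast reads were recovered, 11 were highest in osteoclast library b and 11 lowest in library d. Of 10 recovered in macrophages, all 10 were highest in library a and all 10 lowest in library b, and of 12 recovered in dendritic cells 11 were lowest in library b. Mx2, another antiviral GTPase, held 26.2, 63.1, 20.9 and 12.9 normalised reads in osteoclast libraries a to d, 105, 78.6, 138 and 132 in dendritic cell libraries, and 179, 61.4, 130 and 134 in macrophage libraries. Osteoclast library b also held the most reads of the osteoclast marker Calcr, the calcitonin receptor (1292 normalised reads, against 568, 583 and 578 in libraries a, c and d), whose part in the pattern was not tested. Macrophage library b held the most normalised reads of the osteoclast marker Dcstamp (384 against 24.6, 35.1 and 149 in libraries a, c and d). Of 7 osteoclast markers recovered in macrophages, 5 reached 10 normalised reads in some library. Of these 5, 2 were highest in library b, 2 in library a and 1 in library c. Of 6 dendritic cell markers recovered there, 3 reached that level, 2 being highest in library b and 1 in library d. The part of these markers in the pattern was not tested. Irf7 had its highest osteoclast level in library b but its lowest in library c rather than d. In macrophages it was highest in library a and lowest in library b. In dendritic cells it was lowest in library c and highest in library d, so there the match was not the same. Irf3 was lowest in macrophage library a and stood at 1.02 times its mean in osteoclast library b. Irf9 and Irf1 were highest in osteoclast library a. Over the 10 targets recovered in both osteoclasts and macrophages, the median log2 ratio of osteoclasts to macrophages was -1.40, and it ran from -1.81 to -1.14 as each library was left out in turn. The ranges of the osteoclast and macrophage libraries did not overlap for 2 of these 10 genes. That share over all genes is not known, because libraries were recovered only for the members and the listed genes.

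**Figure D4:**
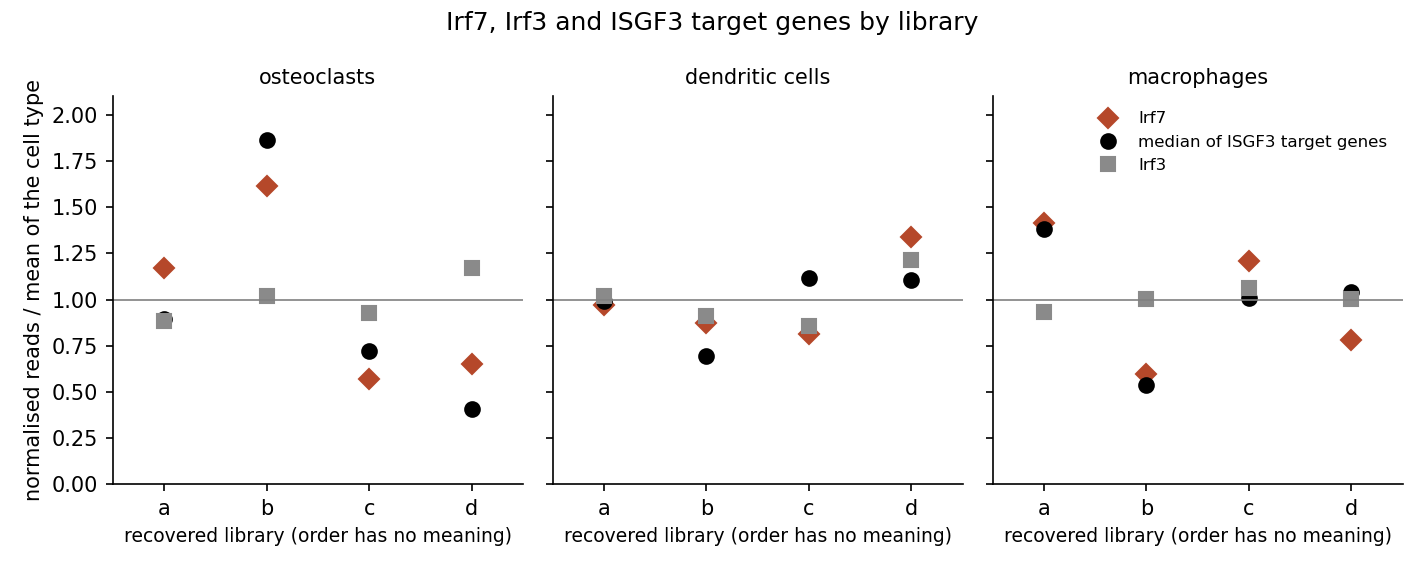
Normalised reads of Irf7, Irf3 and the median over recovered ISGF3 target genes in each library, divided by the mean of the cell type, for osteoclasts, dendritic cells and macrophages. The target genes stand at 1.86 in osteoclast library b, where Irf7 is at 1.61 and Irf3 at 1.02, and at 0.538 in macrophage library b, where Irf7 is at 0.594 and Irf3 at 1.00.

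The interferons themselves were almost unseen. Of 10 ligand genes, 6 had no read in any library, and the other 4 (Ifnb1, Ifng, Ifne and Ifnk) had at most 2 reads each. In all there were 0 reads in osteoclasts, 3 in dendritic cells and 3 in macrophages, and a count of 0 allows up to 3 reads over the 4 libraries of a group. None of the 10 was tested by the authors.

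Among 11 receptors, JAKs and STATs, 2 were higher and 4 lower in osteoclasts than in macrophages, 5 higher and 6 lower in osteoclasts than in dendritic cells, and 3 higher and 5 lower in dendritic cells than in macrophages (authors' deposited table). Of the receptor chains, Ifnar1, Ifnar2, Ifngr1, Ifngr2 and Il10rb were lower in dendritic cells than in macrophages. Ifnlr1, another receptor chain of the list, was not among the 5 genes called lower there. Ifnar1 had means of 3677 in dendritic cells and 6144 in macrophages (-0.74 ± 0.12, adjusted p = 2.15e-09, authors' deposited table). The kinase Jak2 went the other way, with means of 1823 in osteoclasts, 12829 in dendritic cells and 1274 in macrophages (dendritic cells over macrophages 3.30 ± 0.20, adjusted p = 7.11e-58, authors' deposited table). Of 19 sensors, adaptors and kinases upstream of Irf3, Irf5 and Irf7, 2 were higher and 5 lower in osteoclasts than in macrophages, 3 higher and 7 lower in osteoclasts than in dendritic cells, and 7 higher and 4 lower in dendritic cells than in macrophages (authors' deposited table). Over all genes tested, 14.5% were higher and 14.7% lower in osteoclasts than in macrophages, 16.8% and 20.1% in osteoclasts than in dendritic cells, and 20.3% and 16.4% in dendritic cells than in macrophages, so for osteoclasts over macrophages the 7 of 19 sensors, adaptors and kinases called in either direction stood near the 29.3% of all genes. Traf3, an adaptor of both interferon induction and RANK signalling, was higher in osteoclasts than in macrophages (1.31 ± 0.13, adjusted p = 2.66e-22), while Tmem173, which encodes the DNA-pathway adaptor STING, was lower (-0.95 ± 0.15, adjusted p = 6.43e-09, authors' deposited table).

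DNA-binding partners help decide which sites Irf4 and Irf8 can occupy. Of 10 partners and corepressors, 2 were higher and 5 lower in osteoclasts than in macrophages, 2 higher and 6 lower in osteoclasts than in dendritic cells, and 5 higher and 2 lower in dendritic cells than in macrophages (authors' deposited table). The shares of all genes called in either direction were 29.3%, 36.9% and 36.7% in the same order. Spi1 (PU.1), the partner at EICE sites, was higher in osteoclasts than in macrophages, with means of 9100 and 6030 (0.59 ± 0.17, adjusted p = 0.00383, authors' deposited table). Batf3, the AP-1 family partner in dendritic cells, had means of 2.50 in osteoclasts, 516 in dendritic cells and 9.98 in macrophages, and its relative Batf 25.5 in osteoclasts, 437 in dendritic cells and 50.6 in macrophages (authors' deposited table). Spib, a relative of Spi1, had means of 22.7 in osteoclasts, 588 in dendritic cells and 2.68 in macrophages (authors' deposited table). Spib is also a marker of plasmacytoid dendritic cells. Of 6 tested markers of those cells 3 were higher in dendritic cells than in macrophages (Spib, Ccr9 and Pacsin1) and 1 lower (Tcf4), and Pacsin1 had means of 4.98 in osteoclasts, 312 in dendritic cells and 1.46 in macrophages (authors' deposited table). Siglech, a defining marker, had a mean of at most 0.510 in every cell type and Ly6d was at 0, while Tcf4 had a mean of at least 1088 in each (authors' deposited table). The part of such cells in the levels of Spib was not tested.

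A list of 6 genes was taken around Blimp1, Irf8 and Nfatc1 in osteoclast formation. It holds genes of opposite roles, such as Nfatc1 and Bcl6, so its counts do not measure the lowering of Irf8. In osteoclasts over macrophages 4 were higher and 2 lower, in osteoclasts over dendritic cells 6 were higher, and in dendritic cells over macrophages 0 were higher and 3 lower (authors' deposited table). The shares of all genes called in either direction were 29.3%, 36.9% and 36.7% in the same order. Prdm1, which encodes Blimp1, had means of 925 in osteoclasts, 316 in dendritic cells and 377 in macrophages, and was higher in osteoclasts than in macrophages by 1.24 ± 0.45 (adjusted p = 0.024, authors' deposited table). Nfatc1, the master factor of osteoclasts, was higher in them than in macrophages by 1.36 ± 0.20 (adjusted p = 7.93e-10, authors' deposited table). Bcl6, a repressor of osteoclast genes, was lower in osteoclasts than in macrophages (-0.82 ± 0.19, adjusted p = 0.000195) but higher in them than in dendritic cells (1.13 ± 0.19, adjusted p = 4.24e-08, authors' deposited table). Irf8, by contrast, was lower in osteoclasts than in both.

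Irf8 is also the factor of type 1 conventional dendritic cells (cDC1), and of 10 genes tied to them 6 were higher and 2 lower in dendritic cells than in macrophages, where Irf8 was lower (authors' deposited table). Clec9a, a receptor for dead cells, had means of 403 in dendritic cells and 4.63 in macrophages, whereas Xcr1, a chemokine receptor, had only 23.2 in dendritic cells (authors' deposited table). Cadm1, an adhesion molecule, was low in dendritic cells, at 61.2, against 8611 in macrophages (authors' deposited table). In osteoclasts over macrophages 1 of the 10 was higher and 4 lower, and over dendritic cells 2 were higher and 7 lower (authors' deposited table). Over all genes tested, 29.3% were called in osteoclasts over macrophages, 36.9% in osteoclasts over dendritic cells and 36.7% in dendritic cells over macrophages. Of 8 negative regulators, Socs1 and Socs3, which block JAKs, were higher in dendritic cells than in macrophages by 5.35 ± 0.38 and 4.05 ± 0.38, and 4 of the 8 were higher and 1 lower (authors' deposited table). Over macrophages osteoclasts had 2 of the 8 higher and 2 lower, and over dendritic cells 0 higher and 5 lower (authors' deposited table), where 29.3% and 36.9% of all genes tested were called in either direction.

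**Figure D5:**
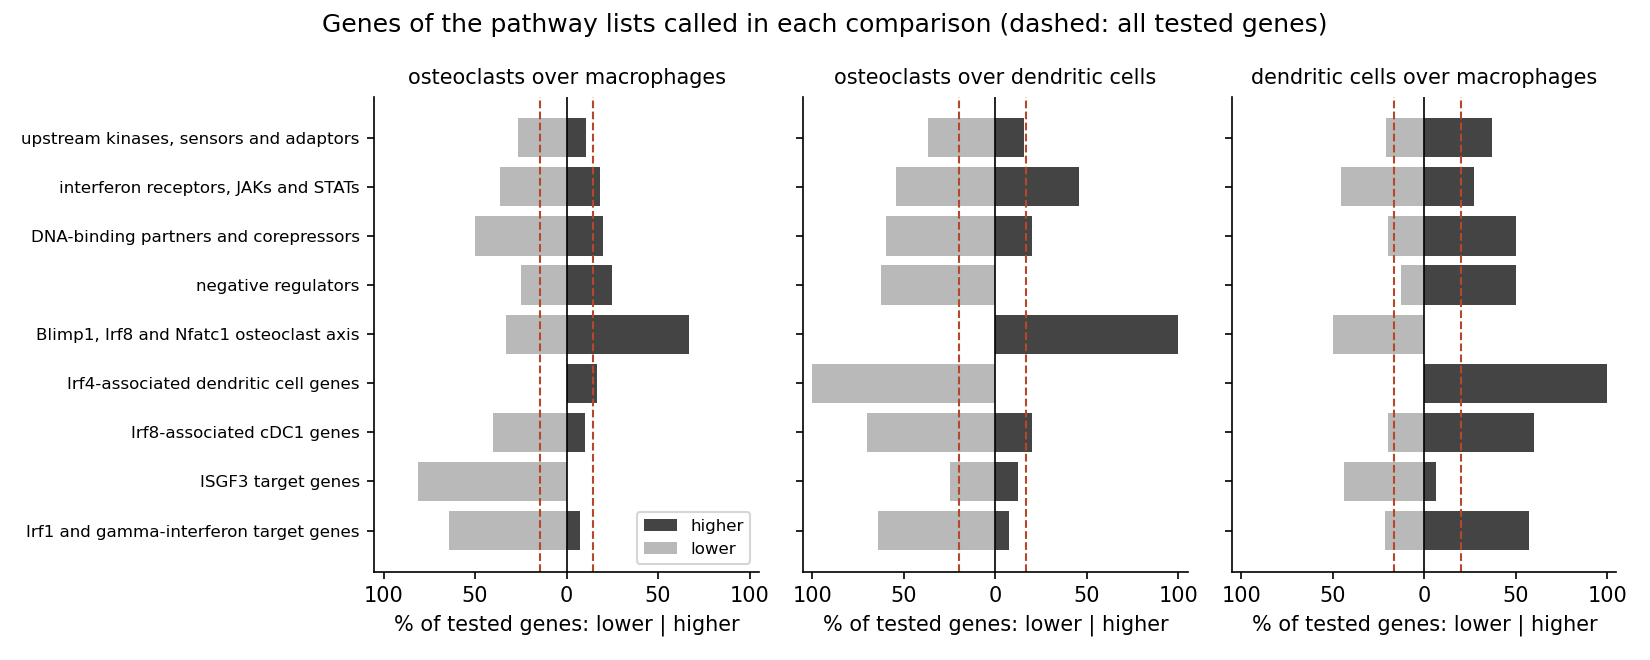
Share of tested genes of each list called higher (right) or lower (left) in the 3 comparisons, with dashed lines at the share over all genes tested. For the ISGF3 target genes 13 of 16 lie on the lower side in osteoclasts over macrophages, and for the genes associated with Irf4 all 6 lie on the higher side in dendritic cells over macrophages.

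The genes whose 3 means stood in the ratios most like those of each member were found among 7901 genes with a mean of at least 500 in some cell type, by Euclidean distance over the 3 log2 ratios. Nearest to Irf8 were Plau (distance 0.07), the urokinase protease, Marcksl1 (0.17) and the ISGF3 target Oasl2 (0.18). Plau had means of 3781 in osteoclasts, 7465 in dendritic cells and 13747 in macrophages (authors' deposited table). Nearest to Irf4 were Hs3st3b1 (0.43) and Treml2 (0.46), farther off than for any other member. Irf5 lay closest to Sh3pxd2b, Adipor2 and Praf2, Irf7 to Rab7b, Il6ra and Adipor1, and Irf2 to Nuak1, Rassf5 and the Toll-like receptor gene Tlr4. Irf1 lay closest to Coro7, Tbc1d9b and Fam76b, Irf9 to Mier1, Ero1lb and Ccpg1, and Irf3 to the histone gene H3f3b, Ostm1 and Trim11. With 3 cell types such closeness describes an order of levels over 3 points.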

How the data were processed

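Per the labels' protocols the library kit was a stranded one for mRNA, and per the series' design text they were read as single reads of 50 bases. The submitters' processing notes name DESeq2 2.13, Cufflinks 2.1.1, TopHat2, Bowtie2 and bcl2fastq, and the GRCm38 build. What each did, the annotation and the use of strand were not given in the sources used here. Per the file headers, the deposited means are the authors' mean per cell type; the values show them to be averages over 4 libraries of counts scaled by size factors. The log2 fold changes, p-values and adjusted p-values are the authors' own, as deposited; dendritic cells over macrophages was turned round from the deposited direction. The standard error is the fold change over the normal quantile of its p-value, on the inference of a two-sided Wald test.

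Whole reads per library were recovered (Python 3.11.15, NumPy 2.4.6, numba 0.67.0) as the 4 whole numbers that, each divided by its size factor, give the printed mean. Means under 1000 were searched freely. For 4 pairs with means up to 1400 (Irf1 in osteoclasts and dendritic cells, Irf9 in osteoclasts, Irf7 in macrophages) each library was taken to lie within 2-fold of the mean, which held for 51 of 54 freely searched pairs with means from 500 to 1000. It did not hold for the ISGF3 target Oasl2 in osteoclasts (mean 883), whose library d stood at 0.366 of the mean. The expected number of chance solutions was at most 0.122. The procedure was tested on simulated data. For means over 1000 the simulated reads were themselves limited to a range around the mean, so the test could not check the 2-fold assumption. Length scaling used the union of all GENCODE M21 exons of a gene, not the length of a transcript. Exact two-sided permutation tests were enumerated in Python, standard errors used the normal quantile of SciPy 1.17.1, and figures matplotlib 3.10.9. All the permutation tests treated the libraries as unpaired. The planned test of all genes on counts per library could not be run. A symbol matched 45138 identifiers and 934 had none. The members and lists were chosen with earlier results of these data known; per list and comparison, genes named are the 2 called with the smallest p in each direction, every receptor, kinase, partner and Blimp1-axis gene may be named, and Xcr1 and the overlapping gene Tnpo3 were chosen after their values were seen. Alternatives were other scalings, filters, thresholds, pseudocounts and leaving out each recovered library. The smallest p that 4 against 4 allows is 0.0286. A few genes that the rule would name are not reported here.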

Additional observations from a re-analysis of the deposited data

How the results depend on the processing

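The count of members called was within 1.5 times of the deposited one without the low-count filter, with low genes left out, at adjusted p under 0.01 and under both other scalings. Asking also for a 2-fold change left 2 members in osteoclasts over macrophages, 3 in osteoclasts over dendritic cells and 2 in dendritic cells over macrophages. With totals made equal, the member median of osteoclasts over dendritic cells was -0.52, Irf1 (0.051) and Irf3 (0.12) changed sign there, and Irf3 changed sign in dendritic cells over macrophages (-0.031); none of these 3 was called under either scaling, and they moved by the shift of all fold changes, by construction. Irf9 was then called in dendritic cells over macrophages (adjusted p = 0.0323), and Irf1 there had an adjusted p of 0.00512, of 0.0173 with upper-quartile scaling and of 0.0377 with low genes left out. Leaving out each recovered library changed no sign of a called member; only the uncalled Irf3 (-0.16 to 0.03 for osteoclasts over dendritic cells, -0.04 to 0.10 over macrophages) and Irf7 (-0.11 to 0.41 over dendritic cells) changed sign. The leave-one-out of the ISGF3 target genes was chosen after seeing the data. No paired analysis was possible because the table has no column per library and the recovered libraries carry no replicate number, so mice could not be matched across cell types. Libraries of 12 of 24 pairs of a member and a cell type were recovered, so the spread behind Irf4 in dendritic cells, Irf5 and Irf2 is known only through the authors' p-values.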
